A study of Arabidopsis thaliana with 14 samples.

Results

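GSA1, HEMB1, CHLI2, CHLM and PORB encode enzymes of tetrapyrrole synthesis, the plastid pathway that leads to chlorophyll. They were taken as every probe set annotated to exactly 1 of these symbols, which gave 5 probe sets, 1 for each gene, of 13513 with exactly 1 gene and 22746 tested. The samples were whole rosettes of Columbia-0 Arabidopsis thaliana aged 5 to 6 weeks, which had spent their last days in a 14 h photoperiod, and 3 rosettes were pooled for each sample. Lights stayed off at the expected dawn, and the plants were harvested as darkness went on. All plants were of 1 genotype and received no agent, so by the labels the groups differed in time and in the letters of their arrays. In time order, 1 array came from late night (2 h ahead of the expected dawn), 3 from end of night (lettered A, B and C), 1 from 2 h into the extended night, 2 from 4 h (A, B), 1 from 6 h, 2 from 8 h (A, B), 2 from 24 h (B, C) and 2 from 48 h (B, C). Values are log2 signals of an Affymetrix array after robust multi-array averaging (RMA) by the authors. The labels do not tell whether samples of 1 time were grown separately, so p-values measure only the spread between these samples.

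Tetrapyrrole synthesis in plants starts from glutamate, which is turned into 5-aminolevulinic acid (ALA). Molecules of ALA are joined and cyclised to protoporphyrin IX, where the pathway splits into an iron branch that gives heme and bilins and a magnesium branch that gives chlorophyll. In flowering plants the reduction of protochlorophyllide to chlorophyllide needs light, and free intermediates of the magnesium branch generate reactive oxygen when lit. GSA1 is a glutamate-1-semialdehyde aminomutase and makes ALA. HEMB1 is an ALA dehydratase, which joins ALA into the pyrrole porphobilinogen. CHLI2 is an ATPase subunit of the magnesium chelatase, CHLM methylates magnesium protoporphyrin IX, and PORB is a light-dependent protochlorophyllide oxidoreductase.

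At 48 h of extended night all 5 transcripts were called lower than at end of night, where 20.3% of all probe sets tested were called lower and 20.5% higher. A transcript was called where limma's Benjamini-Hochberg adjusted p over all probe sets was under 0.05, and errors after ± are limma standard errors unless SD is written. The 5 genes were chosen with earlier results of these data known, and the shares include dim probe sets. With the dimmest left out, 4326 probe sets were called lower at 48 h, against 4623 of all. The share among brighter probe sets was therefore higher than the share given. The remaining signal was 11.6% of the end-of-night value for CHLI2, 28.7% for GSA1, 30.6% for HEMB1, 39.3% for CHLM and 41.6% for PORB. In whole rosettes, fewer cells of a type and less RNA per cell cannot be told apart. The first call came at 4 h for GSA1 and CHLI2, at 8 h for HEMB1 and at 24 h for CHLM, all lower. PORB was called higher at 6 h and 8 h and lower at 48 h.

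**Figure D1:**
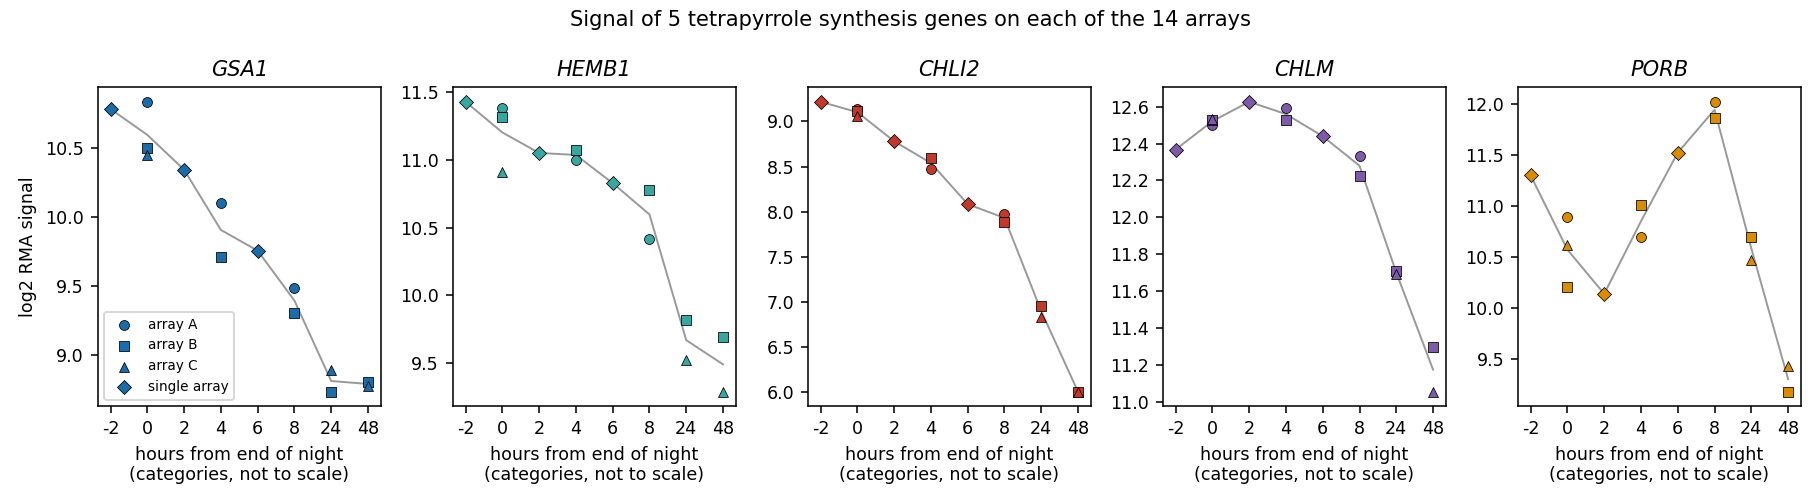
Log2 RMA signal (y axis, a separate range in each panel) of the 5 genes on each of the 14 arrays against hours from end of night (x axis, categories not to scale). Symbols mark array letters, diamonds are times with a single array, and the line joins the means. CHLI2 lay at 6.00 on both 48 h arrays and between 9.06 and 9.14 at end of night, while PORB was highest at 8 h.

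Some facts of the arrays bear on all 5 genes. Array medians after normalization ranged over 6.62 to 6.77 log2 units, and Pearson's r between replicate arrays over all probe sets was 0.975 for the 48 h pair and 0.988 to 0.993 for the rest. The 25S rRNA control of 48 h array B was 8.98 log2 units, against 11.05 to 13.78 on the other arrays, so changes of single tetrapyrrole genes at 48 h against end of night are given with and without it. On that array the 3′ minus 5′ differences of an actin, a GAPDH and a ubiquitin control were 2.43, 0.85 and 1.92 log2 units, inside the ranges of the others. Of 13 leaf photosynthetic markers 3 had a probe set naming only that gene, RCA, SBPASE and PRK, at means of 13.86, 12.75 and 13.39 log2 units at end of night. Their summed linear signal was 16663 to 21056 at 8 h, 10101 to 13505 at 24 h and 2516 to 5979 at 48 h, against 31705 to 34308 at end of night. At 48 h it was lower, as were all 5 genes, while at 8 h it was lower when PORB was higher and CHLM was not called; its part in the changes of the 5 genes was not tested. Of 4 root markers PYK10 and EXPA7 were measured, with a sum of 592 to 656 at 48 h against 483 to 672 at end of night. Of 6 markers of epidermis, guard cells and trichomes FMA was measured, at 264 to 318 at 48 h against 257 to 347 at end of night. The lists for seed, flower and vasculature had 0 measured members. RMA sets the arrays to a common distribution, so a change is relative to the other transcripts of its array. Samples at 2 h to 8 h were taken at other hours of the day than those of end of night, 24 h and 48 h. In any comparison that involves them, 24 h against 8 h included, hour of day and duration of darkness cannot be told apart.

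GSA1 (AT5G63570), which makes ALA, fell from 4 h onwards. Its log2 signal was 10.78 in late night, 10.83, 10.50 and 10.45 on end-of-night arrays A, B and C, and 10.34 at 2 h. It was 10.10 and 9.71 at 4 h, 9.76 at 6 h and 9.49 and 9.31 at 8 h. It was 8.74 and 8.89 at 24 h and 8.81 and 8.78 at 48 h. The arrays from 2 h onwards all lay below the 3 end-of-night arrays, and the 24 h and 48 h arrays overlapped.

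Against end of night, GSA1 fell by 0.69 ± 0.16 log2 units at 4 h (adjusted p = 0.0157), a call lost without 4 h array B (-0.49, adjusted p = 0.156). The change was -0.84 ± 0.20 at 6 h (adjusted p = 0.0171) and -1.20 ± 0.16 at 8 h (adjusted p = 3.91e-04). It was -1.78 ± 0.16 at 24 h (adjusted p = 2.69e-05) and -1.80 ± 0.16 at 48 h (adjusted p = 1.38e-05), with -1.82 at 48 h without array B. GSA1 had made 66.5% of its 48 h log2 change by 8 h and 98.8% by 24 h, and 48 h differed from 24 h by -0.02 ± 0.17 (95% confidence interval -0.41 to 0.36). The means were ordered by time from highest to lowest, and neighbours in that order were not called apart. The widest of these steps was -0.58 ± 0.17 at 24 h against 8 h (adjusted p = 0.118). The change at 8 h against 4 h was -0.51 ± 0.17 (adjusted p = 0.169), and it was called with array letter as a block (adjusted p = 0.0181).

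HEMB1 (AT1G69740), the enzyme that uses ALA, was called later. Its log2 signal was 11.43 in late night and 11.38, 11.31 and 10.91 on the end-of-night arrays. It was 11.05 at 2 h, 11.00 and 11.07 at 4 h, 10.83 at 6 h and 10.41 and 10.78 at 8 h. It was 9.82 and 9.52 at 24 h and 9.69 and 9.29 at 48 h. End-of-night array C stood below A and B, so the 4 h arrays lay inside the end-of-night range, whereas each array from 6 h onwards lay below it.

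HEMB1 differed from end of night by -0.17 ± 0.19 log2 units at 4 h (adjusted p = 0.696) and by -0.37 ± 0.24 at 6 h (adjusted p = 0.368). It fell by 0.60 ± 0.19 at 8 h (adjusted p = 0.0425). That call did not hold when end-of-night array A (-0.51) or B (-0.55) was dropped, when 8 h array A (-0.42) was dropped, or with median centring (-0.53). HEMB1 fell by 1.53 ± 0.19 at 24 h (adjusted p = 2.31e-04) and fell by 1.71 ± 0.19 at 48 h (adjusted p = 7.29e-05), with -1.91 at 48 h without array B. It had made 35.3% of the 48 h change by 8 h and 89.6% by 24 h. The means were again ordered by time. The one neighbouring pair called apart was 24 h against 8 h (-0.93 ± 0.21, adjusted p = 0.0493), a call lost whichever of the 4 arrays was left out. At 48 h against 24 h the change was -0.18 ± 0.21 (adjusted p = 0.795).

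CHLI2 (AT5G45930), the magnesium chelatase subunit at the entry to the chlorophyll branch, fell at each replicated time and had the largest change of the 5 genes at 24 h and 48 h. Its log2 signal was 9.22 in late night and 9.14, 9.12 and 9.06 on the end-of-night arrays. It was 8.78 at 2 h, 8.48 and 8.60 at 4 h, 8.08 at 6 h and 7.97 and 7.88 at 8 h. It was 6.96 and 6.83 at 24 h and 6.00 and 6.00 at 48 h. Among the replicated times the arrays of 1 time overlapped those of no other, and the largest SD within a time was 0.09 log2 units (n = 2).

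Against end of night CHLI2 was at -0.32 ± 0.12 at 2 h (adjusted p = 0.527), and fell by 0.56 ± 0.10 at 4 h (adjusted p = 0.00377). The change was -1.02 ± 0.12 at 6 h (adjusted p = 5.47e-04) and -1.17 ± 0.10 at 8 h (adjusted p = 2.60e-05). It was -2.21 ± 0.10 at 24 h (adjusted p = 6.34e-07) and -3.10 ± 0.10 at 48 h (adjusted p = 5.62e-08), with -3.10 at 48 h without array B. Of all probe sets 1.06% fell by as much or more at 48 h. CHLI2 was also lower at 24 h than at 8 h (-1.03 ± 0.10, adjusted p = 0.00125) and at 48 h than at 24 h (-0.90 ± 0.10, adjusted p = 0.00208), a call lost in a fit of only the 24 h and 48 h arrays (adjusted p = 0.106). At 8 h against 4 h it was at -0.61 ± 0.10 (adjusted p = 0.0148), a call lost whichever of these 4 arrays was left out. The means were ordered by time, and neighbours up to 8 h were not called apart. The 48 h signal lay below the median of every array. CHLI1, which encodes the other form of this subunit, is not analysed here, and whether its transcript adds to the CHLI2 signal was not tested.

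CHLM (AT4G25080), the methyltransferase of the following step, was first called at 24 h. Its log2 signal was 12.37 in late night and 12.50, 12.53 and 12.53 on the end-of-night arrays. It was 12.63 at 2 h, 12.59 and 12.53 at 4 h, 12.44 at 6 h and 12.34 and 12.22 at 8 h. It was 11.71 and 11.69 at 24 h and 11.29 and 11.05 at 48 h. The arrays at 2 h and 4 h were near or above those of end of night, and the arrays from 6 h onwards lay below them.

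CHLM differed from end of night by 0.04 ± 0.10 log2 units at 4 h (adjusted p = 0.896) and by -0.24 ± 0.10 at 8 h (adjusted p = 0.122, 95% confidence interval -0.47 to -0.01). It fell by 0.82 ± 0.10 at 24 h (adjusted p = 2.31e-04) and fell by 1.35 ± 0.10 at 48 h (adjusted p = 6.25e-06), with -1.47 at 48 h without array B. By 8 h it had made 17.9% of the 48 h change and by 24 h 60.9%. The means ran, from the highest, 2 h, 4 h, end of night, 6 h, late night, 8 h, 24 h and 48 h, and neighbours down to 8 h were not called apart. At 24 h against 8 h CHLM fell by 0.58 ± 0.11 (adjusted p = 0.0283) and at 48 h against 24 h it fell by 0.53 ± 0.11 (adjusted p = 0.0301). The 24 h against 8 h call was lost whichever of its 4 arrays was left out, and the 48 h against 24 h call without either 24 h array or without 48 h array C.

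PORB (AT4G27440), which reduces protochlorophyllide in the light, rose above its end-of-night signal and then fell. Its log2 signal was 11.30 in late night and 10.90, 10.21 and 10.62 on the end-of-night arrays. It was 10.14 at 2 h, 10.70 and 11.01 at 4 h, 11.52 at 6 h and 12.02 and 11.87 at 8 h. It was 10.70 and 10.48 at 24 h and 9.18 and 9.43 at 48 h. The 6 h and 8 h arrays were above, and the 48 h arrays below, the arrays of all other times, while 4 h and 24 h overlapped end of night. The SD of its end-of-night arrays, 0.35 log2 units (n = 3), was the largest of the 5 genes.

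PORB differed from end of night by 0.73 ± 0.25 log2 units on the late-night array (adjusted p = 0.998), by -0.43 ± 0.25 at 2 h (adjusted p = 0.828) and by 0.28 ± 0.20 at 4 h (adjusted p = 0.455). It was higher by 0.95 ± 0.25 at 6 h (adjusted p = 0.0281), a call lost without end-of-night array C (0.97, adjusted p = 0.0523). It was higher by 1.37 ± 0.20 at 8 h (2.59-fold, adjusted p = 7.34e-04), where 2.9% of all probe sets rose by as much or more. At 24 h it was at 0.01 ± 0.20 (95% confidence interval -0.43 to 0.46), and at 48 h it fell by 1.27 ± 0.20 (adjusted p = 6.42e-04), with -1.14 without array B. Against the single late-night array PORB was at 0.22 at 6 h and 0.64 at 8 h, with no call. PORB rose by 1.09 ± 0.22 at 8 h against 4 h (adjusted p = 0.0258). It fell by 1.36 ± 0.22 at 24 h against 8 h (adjusted p = 0.0119) and fell by 1.28 ± 0.22 at 48 h against 24 h (adjusted p = 0.0120). The calls at 8 h against 4 h and at 24 h against 8 h were lost whichever of their 4 arrays was left out, and the last without either 24 h array or without 48 h array B. The means ran, from the highest, 8 h, 6 h, late night, 4 h, 24 h, end of night, 2 h and 48 h. The one neighbouring pair called apart was 48 h, lower than 2 h by 0.83 ± 0.27 (adjusted p = 0.0440), where 14% of all probe sets were called lower.

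**Figure D2:**
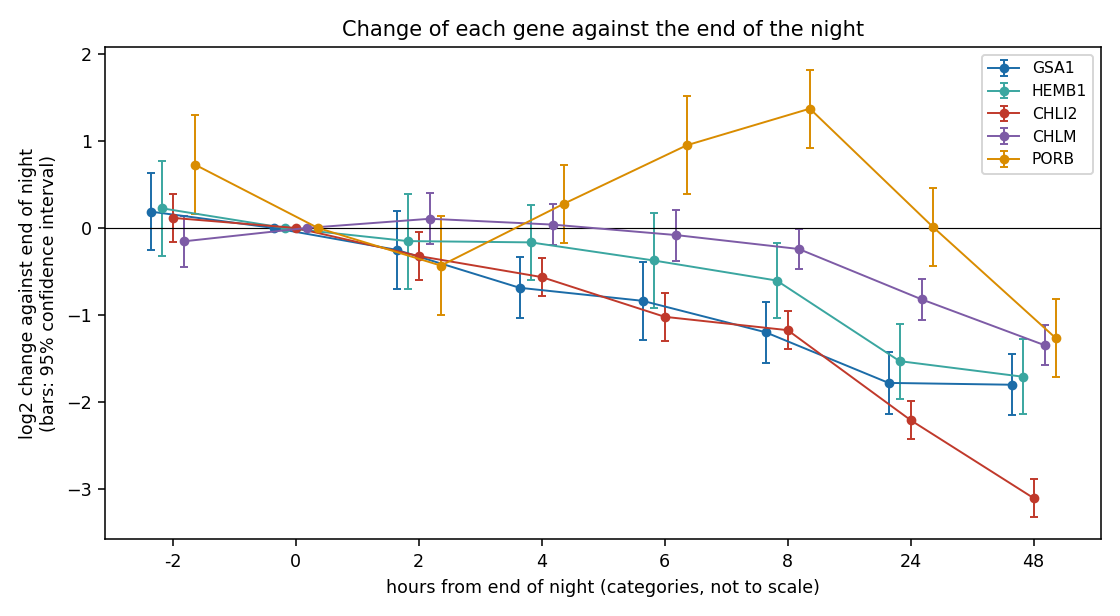
Log2 change against end of night (y axis) for the 5 genes at each sampled time (x axis, categories not to scale), with 95% confidence intervals from the limma fit as bars. End of night is 0 by definition. PORB stands at 1.37 at 8 h, when CHLI2 and GSA1 stand at -1.17 and -1.20, and at 48 h all 5 are between -3.10 and -1.27.

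The counts of called genes are set beside the shares over all probe sets. The 5 genes were chosen with earlier results of these data known. The counts and medians therefore do not test whether these genes differ from other probe sets. At 4 h 2 of 5 were lower and 0 higher, where 8.78% of all probe sets were lower and 7.49% higher. On the 6 h array GSA1 and CHLI2 were lower and PORB higher, against 9.7% and 8.29%. At 8 h 3 were lower and 1 higher, against 15% and 12.7%, and at 24 h 4 were lower and 0 higher, against 17.2% and 15.5%. On the late-night array and at 2 h limma called 0 of the 5, where it called 0.00879% and 0.435% of all probe sets. At an unadjusted p under 0.05 there was 1 gene in each, PORB, higher in late night, and CHLI2, lower at 2 h. The median log2 change of the 5 genes was -0.17 at 4 h, -0.60 at 8 h, -1.53 at 24 h and -1.71 at 48 h, against -0.02, 0.01, 0.02 and 0.03 over all probe sets. Where 0 of the 5 were called higher at replicated times, 0 were higher at an unadjusted p under 0.05. These comparisons share the end-of-night arrays. The moderated F-test for any difference among the 8 times called all 5 genes and 35.5% of all probe sets.

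The statements on neighbouring times rest on comparisons that differ in how much they called. Of all probe sets 0.752% were called at 4 h against 2 h, 0.0044% at 6 h against 4 h and 0% at 8 h against 6 h. For the neighbours of CHLM and PORB the shares were 14.9% at 6 h, 20.6% at 8 h and 12.1% at 4 h against late night, and 13.6% at 24 h against 4 h.

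A straight line in time was fitted to the 10 arrays up to 8 h. GSA1 changed by -0.145 ± 0.015 log2 units per hour (adjusted p = 2.76e-05), CHLI2 by -0.142 ± 0.010 (adjusted p = 3.48e-06) and HEMB1 by -0.074 ± 0.015 (adjusted p = 0.00277). CHLM was at -0.017 ± 0.012 (adjusted p = 0.316), and PORB rose by 0.122 ± 0.041 (adjusted p = 0.0390). So 3 of 5 genes had a called negative slope and 1 a called positive one, against 19.7% and 16.5% of all probe sets. The PORB call was lost without 4 h array B, the 6 h array, either 8 h array, and without the B or the C array of end of night, and it became 0.179 per hour without the late-night array, with its lowest signal of these 10 arrays at 2 h.

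Successive replicated times were compared as well. At 8 h against 4 h 1 of 5 genes, CHLI2, was lower and 1, PORB, higher, against 2.18% and 1.66% of all probe sets. At 24 h against 8 h 4 of 5 were lower and 0 higher, against 1.89% and 1.35%. At 48 h against 24 h CHLI2, CHLM and PORB were lower and 0 genes higher, against 2.55% and 2.48%. GSA1 and HEMB1 were not called in that last interval, at -0.02 and -0.18. Of all measured listed genes, 4 of 4 in the magnesium branch were lower in that interval. In ALA synthesis 0 of 3 were lower, and between ALA and protoporphyrin IX 1 of 6 was. That gene was HEME1 (-0.66 ± 0.15, adjusted p = 0.0396). Whether calls depend on position in the pathway was not tested. In limma fits of only the arrays of both times compared, the call of CHLI2 at 8 h against 4 h was lost (adjusted p = 0.0697). Calls were also lost for HEMB1 (adjusted p = 0.0969) and CHLM (adjusted p = 0.122) at 24 h against 8 h. At 48 h against 24 h they were lost for CHLI2 (adjusted p = 0.106), CHLM (adjusted p = 0.278) and PORB (adjusted p = 0.0872). That last fit called 2 of all probe sets.

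**Figure D3:**
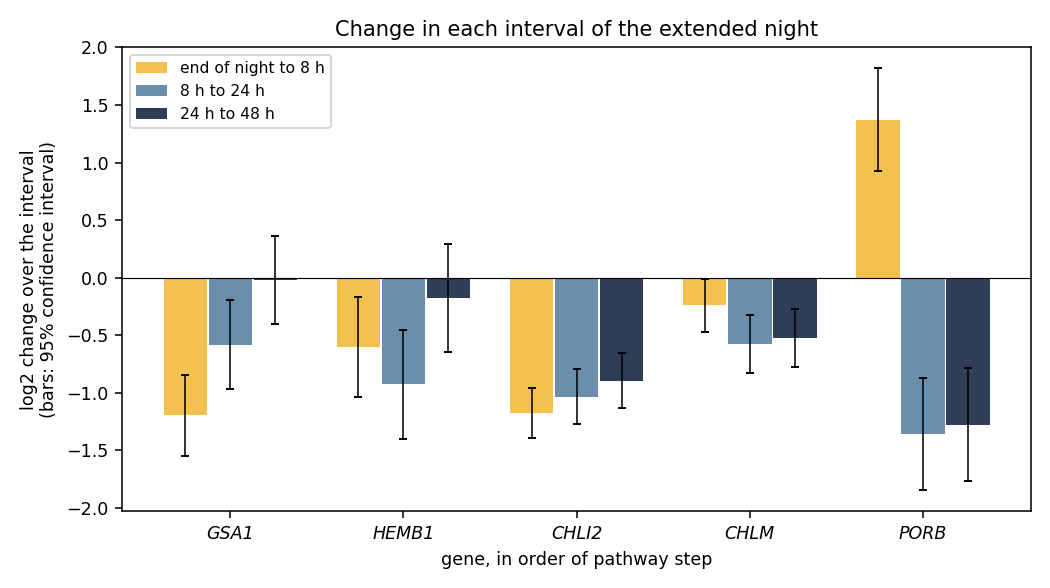
Log2 change (y axis) of each gene, ordered by pathway step, for 8 h against end of night, 24 h against 8 h and 48 h against 24 h, with 95% confidence intervals as bars. GSA1 and HEMB1 are near 0 in the last interval (-0.02 and -0.18), where CHLI2, CHLM and PORB are at -0.90, -0.53 and -1.28.

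Whether genes changed by different amounts was tested on the difference between the log2 signals of a pair of genes on the same array, which compares changes and not levels. The 5 arrays of 4 h to 8 h, and the 4 arrays of 24 h and 48 h, were each set against the 4 arrays of late night and end of night, for 10 pairs of genes in each window. The test exchanged arrays freely and joined different times in a window, although arrays that shared a letter deviated together, so the arrays are not independent and these p-values are a rough guide. After Benjamini-Hochberg adjustment over the 20 exact two-sided permutation tests 0 pairs passed, while 12 had an unadjusted p under 0.05. After a second quantile normalization of the arrays 12 of the 20 passed, each at an adjusted p of 0.0476. HEMB1 against CHLM at 24 h and 48 h was among them, from 0.0816 before. The rest of them had stood at 0.0519, so the step from 0 to 12 was a small move across the threshold. In 6 pairs for 4 h to 8 h and 5 for 24 h and 48 h the arrays of the window did not overlap those of the night. Each had the smallest exact p that the design allows, 0.0159 and 0.0286 in the 2 windows, and an adjusted p of 0.0519. The share of pairs without overlap among all probe sets was not computed. These counts therefore do not tell whether the 5 genes differ from other probe sets in this.

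From 4 h to 8 h, CHLI2 minus PORB was -3.22 ± 0.86 log2 units, against -1.62 ± 0.42 at night (SD, n = 5 and n = 4). GSA1 changed by -1.64 relative to PORB, -0.91 relative to CHLM and -0.53 relative to HEMB1, and CHLI2 by -0.87 relative to CHLM, all without overlap. HEMB1 changed by 0.49 relative to CHLI2, again without overlap. GSA1 and CHLI2 were the closest pair in this window, at -0.04 (exact permutation p = 0.810). At 24 h and 48 h GSA1 and HEMB1 had changed by 0.85 and 1.01 relative to CHLI2, and CHLI2 by -1.64 relative to CHLM and -1.88 relative to PORB, each without overlap. GSA1 relative to CHLM was also without overlap, at -0.79. The difference was -0.16 for GSA1 and HEMB1 (exact permutation p = 0.314) and -0.24 for CHLM and PORB (exact permutation p = 0.514). These values join unlike times. At 24 h alone against end of night CHLM changed by -0.83 relative to PORB, and at 8 h alone GSA1 changed by -2.57 relative to PORB. Of 210 alternative values of pair differences, 8 moved by at least the SD of their window.

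Beyond the 5 genes, 12 others of 66 listed tetrapyrrole genes had a probe set with 1 gene, so most enzymes of the pathway are not described here. Of these 12, 0 were called higher by limma in the 7 comparisons of replicated times, and 0 were higher at an unadjusted p under 0.05. Against end of night 7.49%, 12.7%, 15.5% and 20.5% of all probe sets were called higher at 4 h, 8 h, 24 h and 48 h. The shares were 1.66% at 8 h against 4 h, 1.35% at 24 h against 8 h and 2.48% at 48 h against 24 h. With shares that low, 0 of 12 tells little for successive times. Against end of night 1 of the 12 was lower at 4 h, 4 at 8 h, 7 at 24 h and 6 at 48 h. The medians were -0.13, -0.25, -0.54 and -0.43 log2 units. Of all probe sets 8.78%, 15%, 17.2% and 20.3% were lower at these times, so the count at 4 h is near the background.

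In ALA synthesis 3 of 5 listed genes were measured, and at 48 h GSA1 alone was called. HEMA2, a glutamyl-tRNA reductase, had 7.30 and 7.49 log2 units at 48 h and 7.23 and 7.11 at 24 h, against 7.36 to 7.73 at end of night. It fell by 0.40 ± 0.13 at 24 h (adjusted p = 0.0387) and was at -0.17 ± 0.13 at 48 h (adjusted p = 0.330; -0.08 without array B). HEMA3, of the same family, was at 0.33 ± 0.15 at 8 h (adjusted p = 0.149) and 0.14 at 48 h (0.06 without array B), with no call. Its signal was 4.41 to 4.93 log2 units over all arrays, below every array median, which may leave little room for a fall.

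Between ALA and protoporphyrin IX 6 of 11 listed genes were measured and 3 were lower at 48 h, HEMB1, HEME1 and HEME2. HEME1 and HEME2 encode uroporphyrinogen decarboxylases. HEME1 had 8.17 and 7.84 log2 units at 48 h, against 9.85 to 10.15 at end of night. It was at -0.15 ± 0.14 at 8 h (adjusted p = 0.502), and fell by 1.38 ± 0.14 at 24 h (adjusted p = 5.48e-05) and fell by 2.04 ± 0.14 at 48 h (adjusted p = 2.81e-06; -2.20 without array B). HEME1 was also lower at 24 h than at 8 h (-1.23 ± 0.15, adjusted p = 0.00334). HEME2 fell by 1.38 ± 0.37 at 8 h (adjusted p = 0.0211) and fell by 2.00 ± 0.37 at 48 h (adjusted p = 0.00186; -1.41 without array B), from 48 h arrays with an SD of 0.84, against 0.23 for HEME1. The genes hemb2, hemf2 and AT5G63290 were at -0.03, 0.05 and -0.23 at 48 h, with no call, and at 0.10, 0.71 and -0.05 without array B. The signal of hemb2 was 5.38 to 5.79 log2 units over all arrays, below every array median, so a fall may be hard to see.

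In the magnesium branch 4 of 15 listed genes were measured, and all 4 were lower at 48 h than at 24 h and at 24 h than at 8 h, where 2.55% and 1.89% of all probe sets were lower. HEME1, ahead of the branch, was lower in both intervals as well. The calls of CHLI2, CHLM and PORB are those already counted above, and several of them were lost in alternative fits. The remaining gene of the branch was AT1G74470, annotated as geranylgeranyl reductase, which provides the phytyl tail of chlorophyll. It had 11.26 and 11.19 log2 units at 48 h, against 13.32 to 13.61 at end of night. It was at -0.21 ± 0.11 at 8 h (adjusted p = 0.193), and fell by 0.77 ± 0.11 at 24 h (adjusted p = 4.13e-04) and fell by 2.22 ± 0.11 at 48 h (adjusted p = 4.08e-07; -2.26 without array B). Like CHLM, this gene was first called at 24 h among the replicated times.

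Of 16 listed regulators 2 were measured, LIL3:1 and LIL3:2, light-harvesting-like proteins that bind geranylgeranyl reductase in the thylakoid membrane. LIL3:1 changed by -0.93 ± 0.17 at 4 h (adjusted p = 0.00476), -2.03 ± 0.17 at 8 h (adjusted p = 2.56e-05) and -3.74 ± 0.17 at 48 h (adjusted p = 2.78e-07; -3.57 without array B), the last beyond the change of CHLI2. LIL3:2 fell by 0.81 ± 0.20 at 8 h (adjusted p = 0.0130) and fell by 1.79 ± 0.20 at 48 h (adjusted p = 6.47e-05; -1.56 without array B). Outside the chlorophyll route, 1 of 9 genes of the heme, bilin and siroheme branches and 1 of 10 of breakdown were measured. SIRB, the ferrochelatase of siroheme synthesis, fell by 0.48 ± 0.12 at 8 h (adjusted p = 0.0131) and fell by 0.62 ± 0.12 at 48 h (adjusted p = 0.00196; -0.59 without array B). At 24 h it was called lower at -0.83, and at 48 h against 24 h it was at 0.21, with no call. NOL, a chlorophyll b reductase of chlorophyll breakdown, had 9.02 and 8.68 log2 units at 48 h against 8.64 to 8.75 at end of night, a change of 0.14 ± 0.14 (adjusted p = 0.479; -0.03 without array B).

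**Figure D4:**
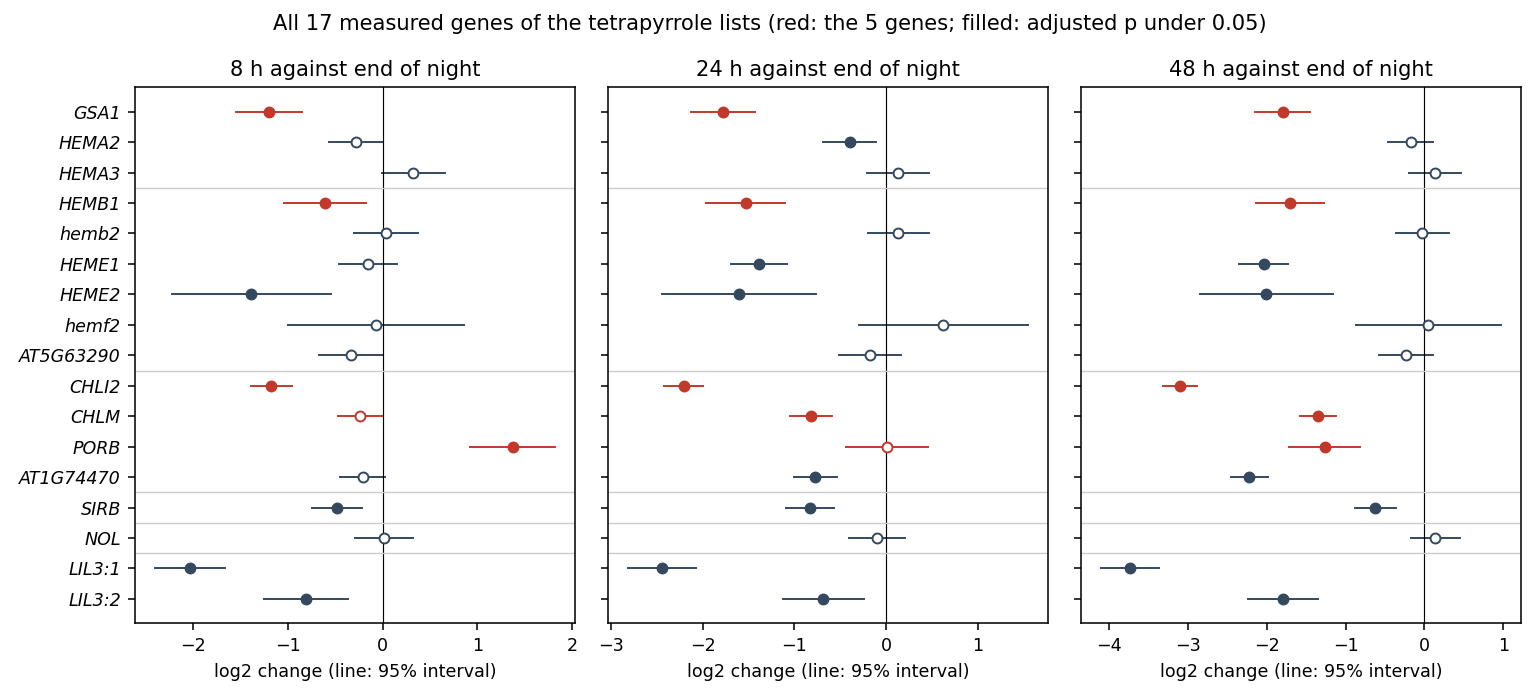
Log2 change (x axis, a separate range in each panel) of all 17 measured genes of the tetrapyrrole lists at 8 h, 24 h and 48 h against end of night, in pathway order from ALA synthesis at the top (lines separate the lists). Red marks the 5 enzymes, filled points are called and lines are 95% confidence intervals. PORB at 8 h (1.37) is the only called rise among the points drawn.

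Each profile was compared with the others and with 13512 probe sets with 1 gene by Pearson's r over the 14 arrays. These arrays share the normalization and include replicates of 1 time, so r only describes likeness. GSA1, HEMB1, CHLI2 and CHLM had r of 0.818 to 0.960 with each other, and PORB had 0.251 to 0.576 with them. The 3 profiles nearest to GSA1 were those of AT4G10480 (0.986), AT1G16080 (0.984) and AT5G20080 (0.983). Nearest to HEMB1 were AT3G54210 (0.977), VPS2.2 (0.976) and AT1G79260 (0.975). Nearest to CHLI2 were PMEAMT, a methyltransferase of phosphocholine synthesis (0.996), AT5G19760 (0.995) and AT2G01250 (0.994). PMEAMT was at -1.55 at 8 h and -4.21 at 48 h in log2 change against end of night. Nearest to CHLM were AT2G34620 (0.991), HEME1 of the same pathway (0.986) and AT5G59250 (0.984). PORB had lower values, with OTC, ornithine carbamoyltransferase of arginine synthesis (0.904), AT5G61660 (0.884) and AT1G09750 (0.867) nearest. AT1G09750 was at 0.55 at 8 h and -2.08 at 48 h.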

How the data were processed

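The authors deposited log2 signals per probe set, made with RMA per the submitters' processing notes; which RMA software was used is not given in the sources used here. Each array column was tied to its sample through the labels. Of 22810 probe sets 64 controls were left out and 22746 tested, with no filter on signal. The platform annotation gave exactly 1 gene for 13513, and RefSeq TAIR10.1 held 13436 of these. Times were compared by limma 3.58.1 (R 4.3.3; lmFit, eBayes) with 8 times as a factor and 6 residual degrees of freedom, taking lone arrays to vary as replicated ones do. The number of arrays limits precision. The fit was tested on simulated data, and pair tests used scipy 1.17.1. The members and lists were chosen with earlier results of these data known. Named genes are the members, the measured listed genes and the 3 nearest profiles per member. As to pairing, deviations from the time means had r of 0.17 to 0.58 in 16 pairs of arrays sharing a letter. In 32 other pairs r was -0.58 to 0.37. Where a time had a single pair of arrays, their deviations were equal and opposite by construction. Many values of r therefore repeat with the sign turned, so the pairs are not independent and the contrast between letters is partly forced. Letters were still taken to pair arrays in an alternative fit. Other alternatives were thresholds, normalizations, a filter on dim probe sets, variance settings and leaving out arrays. A planned promoter search was not run, since no sequences were used here.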

Additional observations from a re-analysis of the deposited data

How the results depend on the processing

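Of 515 alternative values of the 5 genes' changes, 464 kept direction and side of the threshold, 44 lost a call, 1 gained one and 6 turned sign; the cause was not tested. Probe sets called numbered 3700 at 4 h against end of night, 6310 at 8 h against end of night, 7426 at 24 h against end of night, 9287 at 48 h against end of night, 874 at 8 h against 4 h, 736 at 24 h against 8 h and 1144 at 48 h against 24 h. At an adjusted p under 0.01 they were 1950 (4 h against end of night), 4166 (8 h against end of night), 263 (8 h against 4 h), 227 (24 h against 8 h) and 362 (48 h against 24 h), and with at least 2-fold 1298 (4 h against end of night), 2692 (8 h against end of night), 3374 (24 h against end of night), 4773 (48 h against end of night), 416 (8 h against 4 h), 338 (24 h against 8 h) and 563 (48 h against 24 h). With only the arrays of both times there were 273 (24 h against 8 h) and 2 (48 h against 24 h), and the genes lost calls for HEMB1 at 8 h (-0.604), CHLI2 at 8 h against 4 h (-0.61), HEMB1 and CHLM at 24 h against 8 h (-0.926, -0.579), and CHLI2, CHLM and PORB at 48 h against 24 h (-0.895, -0.527, -1.279). With array letter as a block for the pairing, 5960 (4 h against end of night), 2459 (8 h against 4 h), 1523 (24 h against 8 h) and 2972 (48 h against 24 h) were called, and GSA1 at 8 h against 4 h gained a call (-0.511), the only call of the 5 genes that the block changed. Median centring lost HEMB1 at 8 h (-0.529) and at 24 h against 8 h (-0.932) and turned GSA1 at 48 h against 24 h (0.00033). A second quantile normalization lost the same HEMB1 calls (-0.599, -0.926) and turned PORB at 24 h (-0.0065). It let 12 of 20 gene pairs pass, each at an adjusted exact permutation p of 0.0476. CHLM at 48 h against 24 h was lost without the dimmest probe sets (-0.527) and CHLI2 at 8 h against 4 h with trend and robust variance (-0.61). Leaving out each array gave 1759 to 2930 calls (4 h against end of night), 185 to 397 calls (8 h against 4 h), 157 to 261 calls (24 h against 8 h) and 346 to 1739 calls (48 h against 24 h). For genes whose call or sign changed it gave -0.88 to -0.494 for GSA1 (4 h against end of night), -0.787 to -0.421 for HEMB1 (8 h against end of night), 0.767 to 1.112 for PORB (6 h against end of night), -0.171 to 0.174 for PORB (24 h against end of night), -0.671 to -0.549 for CHLI2 (8 h against 4 h), 0.936 to 1.249 for PORB (8 h against 4 h), -1.109 to -0.743 for HEMB1 (24 h against 8 h), -0.634 to -0.524 for CHLM (24 h against 8 h), -1.468 to -1.248 for PORB (24 h against 8 h), -0.099 to 0.057 for GSA1 (48 h against 24 h), -0.381 to 0.024 for HEMB1 (48 h against 24 h), -0.647 to -0.406 for CHLM (48 h against 24 h) and -1.404 to -1.153 for PORB (48 h against 24 h), and 0.0972 to 0.1789 per hour for the PORB slope. Without 48 h array B, hemb2 and NOL, not called at 48 h, turned sign (0.1 and -0.03); this was added after seeing the data. The promoter search was not run.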
